A study of Mus musculus with 12 samples.

Results

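Mitochondrial dynamics was examined through 10 genes chosen by symbol: the fission genes Mff, Dnm1l, Fis1 and Mtfr1, the fusion genes Mfn1, Mfn2 and Opa1, and the mitophagy genes Pink1, Park2 and Bnip3. A symbol match found 9 of the 10 among the 18138 symbols of the unnormalized table, and 6 of them were detected and tested. Pink1 was not analysed here. Total RNA came from ileum tumours of FVB/N mice aged 3 to 4 months, hybridised to Illumina bead arrays, 1 array per tumour sample. The 6 arrays labelled FVBN/APCmin (arrays 1 to 6) and the 6 labelled iPGC-1β/APCmin (arrays 7 to 12) share the APCmin allele, which shortens the product of the tumour suppressor gene Apc and leads to intestinal adenomas. Only the second group carries the iPGC-1β modification, named after PGC-1β, a transcriptional coactivator of mitochondrial genes. The labels describe neither its construct nor its promoter, nor the control line beyond its name. They do not tie tumours to animals, so p-values measure only the spread between these samples.

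Mitochondria divide and merge continuously. Division is driven by the dynamin GTPase DRP1, product of Dnm1l, which is drawn from the cytosol to receptors in the outer membrane, among them MFF, FIS1 and the MiD proteins. The mitofusins, from Mfn1 and Mfn2, merge outer membranes, and OPA1 merges inner membranes and keeps the cristae in shape. In mitophagy, damaged mitochondria are marked by the kinase PINK1 and the ubiquitin ligase Parkin (Park2), or tagged by receptors such as BNIP3, and are carried to the lysosome by the autophagy machinery. Intestinal epithelium is rich in mitochondria, and PGC-1 coactivators raise mitochondrial gene expression together with nuclear factors such as NRF1 and the estrogen-related receptors (ERR).

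A positive difference means a higher level in iPGC-1β/APCmin. Levels and differences are log2 values of background-corrected, quantile-normalized intensity, with 6 arrays per group. Differences come from limma, with Benjamini-Hochberg adjustment over all 10967 genes tested and a threshold of 0.05. The threshold was passed by 378 genes, 3.45% of those tested, with 2.22% higher and 1.23% lower. For all genes together the median was -0.01. The Ppargc1b probe itself averaged 8.41 ± 0.65 for FVBN/APCmin and 7.86 ± 0.44 for the other genotype (SD over 6 arrays; limma difference -0.55, adjusted p = 0.296). It did not show the genotype, which therefore rests on the labels. The median raw intensity of an array lay between 139.3 and 170.5, with 12858 to 14445 of 25697 probes detected. Epithelial markers were bright in both groups (Krt8 15.20 and 14.89), as was the ileal bile acid binding protein gene Fabp6 (14.60 and 13.14), while the probes for the ileal bile acid transporter gene Slc10a2 and for Fabp2 were detected on no array. Lymphocyte markers set 2 arrays apart from their groups. All 15 tested markers of B, T and NK cells had negative differences and 4 passed, with Cd8a detected on no array. Their mean level, each gene centred over the 12 arrays, was 1.36 to 1.74 on arrays 1 to 5 and -2.12 to -1.10 on arrays 8 to 12. Array 6 (FVBN/APCmin) was at -0.80 and array 7 (iPGC-1β/APCmin) at 1.81. The same 2 arrays stood out by correlation between arrays. For array 7 even the lowest value against arrays 1 to 5 (0.952) exceeded the highest against arrays 8 to 12 (0.892). It was thus closer to the other genotype than to its own. For array 6 the highest values were nearly equal, 0.951 against arrays 1 to 5 and 0.953 against arrays 8 to 12. Why was not tested, and the labels were kept. No gene of the other marker lists passed with all 12 arrays. Epithelial markers had negative differences in 7 of 9 (median -0.31), enterocyte markers in 3 of 4 (median -0.84), endothelial markers positive ones in 4 of 6 (median 0.58), and both haemoglobin genes tested were positive (2.58 and 1.77). In bulk RNA, fewer cells of a type and less RNA per cell cannot be told apart.

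Among fission genes, Mff passed on 1 of its 2 kept probes, and it was the only member to pass. That probe was chosen by its mean over all 12 arrays, which came from the group in which it was high. The values of this paragraph are of that probe alone, and its choice favoured a rise. On the probe used for the gene, the one with the highest mean of its kept probes, the log2 level ran from 7.46 to 7.86 with a median of 7.61 in FVBN/APCmin. In iPGC-1β/APCmin it ran from 8.35 to 9.67 with a median of 9.29. All 6 iPGC-1β/APCmin arrays lay above all 6 of the other group, and array 9 was the lowest of them. The difference was 1.56 (SE 0.21, 95% confidence interval 1.12 to 2.01), a fold of 2.96 on this scale, with an adjusted p = 0.00277. The exact two-sided permutation p was 0.00216, the smallest that the 924 relabelings of 12 arrays can give. Of all genes tested, 2.82% separated the groups completely, 1.93% with iPGC-1β/APCmin higher and 0.884% with it lower. Mff passed in all 12 fits that left out 1 array, with differences of 1.47 to 1.73, and so also without array 6 or array 7. With the lymphocyte level as a covariate the difference was 1.49 (adjusted p = 0.0842), in a fit in which 5 genes passed in all.

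**Figure D1:**
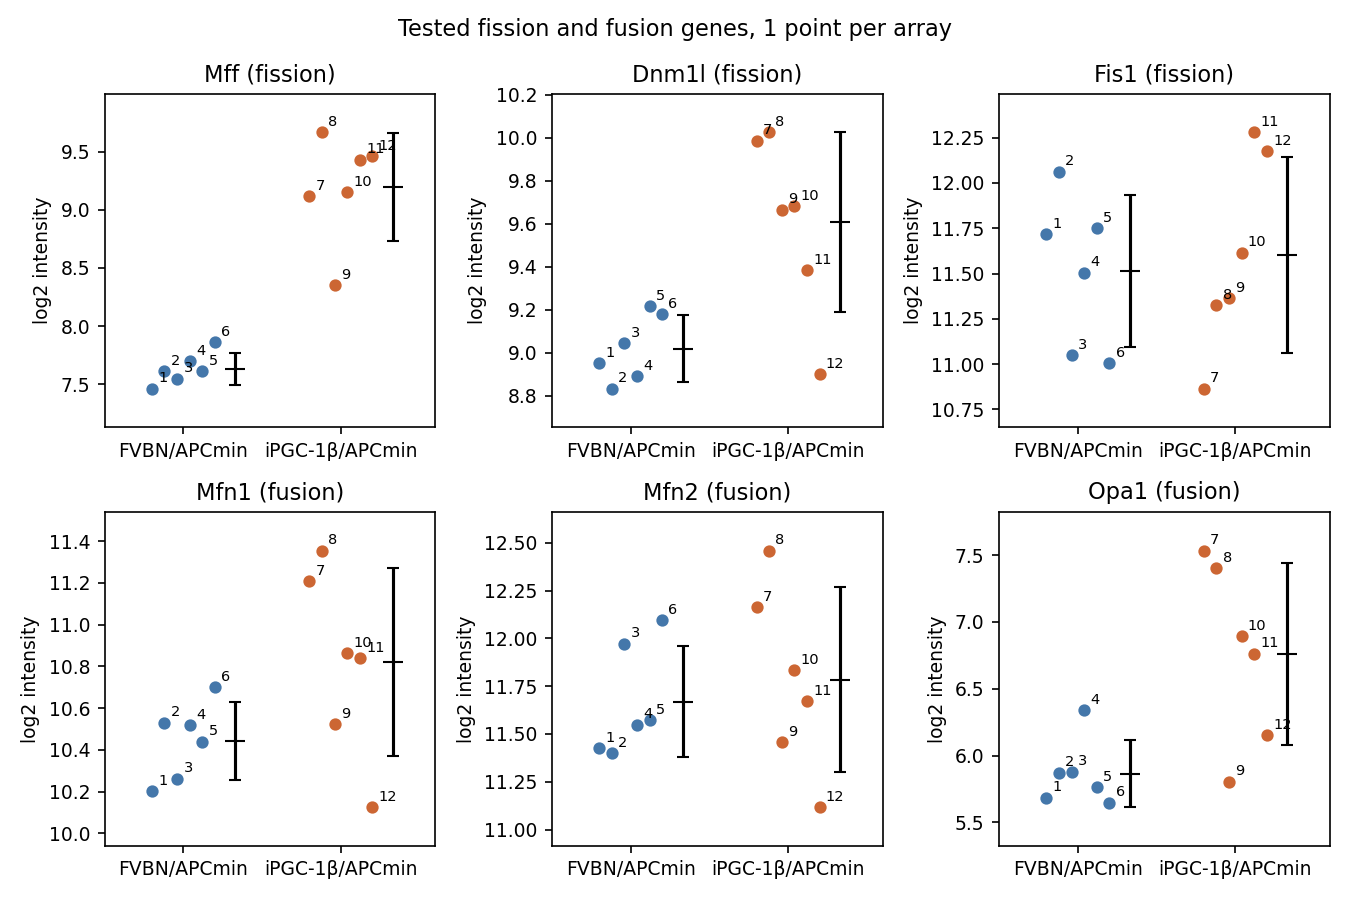
Log2 intensity (y axis) of the 6 tested members on each array (points, numbered by array), by genotype (x axis), with the group mean and SD as a black bar. The 6 iPGC-1β/APCmin points for Mff sit between 8.35 and 9.67, above all FVBN/APCmin points. For the other 5 genes the groups overlap, and array 12 falls among or below the FVBN/APCmin arrays for Dnm1l, Mfn1 and Mfn2.

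The upstream sequence of Mff is shown because it is the member that passed, on 1 of its probes. It is the first of 2 annotated start sites, taken from RefSeq (GRCm38.p6, chr1:82724640-82724889, + strand), 5′ to 3′ over the 250 bases before the start.
Mff: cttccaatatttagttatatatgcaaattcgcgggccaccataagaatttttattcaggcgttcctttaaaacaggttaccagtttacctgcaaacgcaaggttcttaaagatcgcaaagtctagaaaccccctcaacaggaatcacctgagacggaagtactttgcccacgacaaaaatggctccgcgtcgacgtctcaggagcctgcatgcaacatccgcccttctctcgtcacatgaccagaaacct
Windows of this length were searched on both strands for an NRF1 motif (GCGCA, then any base, then GCGC) and an ERR motif (TNAAGGTCA). No match stood in the Mff window, which says only that these letters are not in it. Of 32851 annotated windows 3.74% held the NRF1 motif and 1.14% the ERR motif. The members had 13 windows over 8 genes, of which 3 held the NRF1 motif (Opa1, Pink1 and Bnip3) and 0 the ERR motif.

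A second Mff probe did not follow the first. Both were detected on all 12 arrays. On FVBN/APCmin arrays the second probe (ILMN_2998593) read 283.9 to 427.6 in raw intensity, with a median of 356.9. Arrays 9, 11 and 12 read 478.7, 631.7 and 566.3, above every FVBN/APCmin array. Arrays 7, 8 and 10 read 160.4, 163 and 168.4, below every FVBN/APCmin array and close to background. On the same arrays 7, 8 and 10 the first probe (ILMN_2732961) read 666, 838.5 and 585.3, against at most 351.7 in FVBN/APCmin. The difference of the second probe was -0.58 (SE 0.55; adjusted p = 0.574 over the 14827 kept probes, of which 3.1% passed), and that of the first, tested the same way, 1.56 (adjusted p = 0.00301). After each genotype's mean was subtracted, the 2 probes correlated at r = -0.131 over the 12 arrays. The gap of 2.15 between their differences was the second largest among the 2755 genes with several kept probes, behind Arhgdib (2.23), where the median gap was 0.19. Averaging both Mff probes gave a difference of 0.49 (adjusted p = 0.347), so the rise of Mff rests on 1 of its probes. The first probe was chosen by its mean log2 level over all 12 arrays. In FVBN/APCmin the second probe averaged higher (7.85 against 7.63), in iPGC-1β/APCmin the first (9.20 against 7.26). The choice of the first thus came from the group in which it was high, and it favoured a rise. The last Mff probe (ILMN_2598648) was detected on no array. Which transcripts the probes match was not examined.

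**Figure D2:**
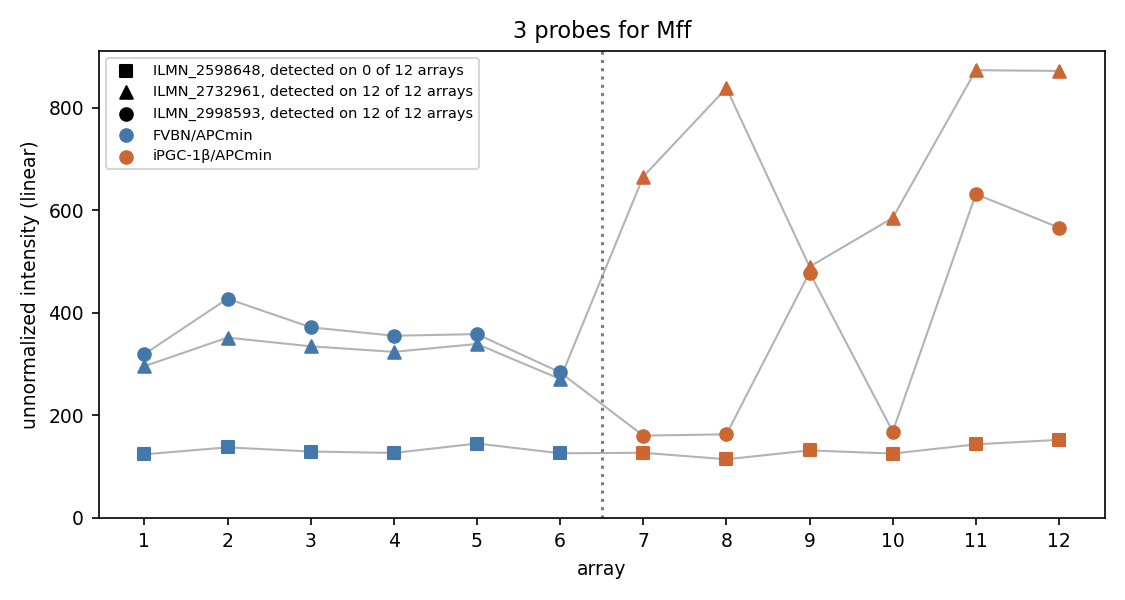
Unnormalized linear intensity (y axis) of the 3 Mff probes on arrays 1 to 12 (x axis), coloured by genotype, with a dotted line between the groups. The triangles rise on arrays 7 to 12, while the circles drop to 160.4, 163 and 168.4 on arrays 7, 8 and 10 only.

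Dnm1l, the fission GTPase itself, did not pass. Its log2 level was 8.83 to 9.22 in FVBN/APCmin (median 9.00) and 8.90 to 10.03 in iPGC-1β/APCmin (median 9.67). Arrays 7 to 11 lay above every FVBN/APCmin array, and array 12 fell among them. The difference was 0.59 (SE 0.19, 95% confidence interval 0.18 to 1.00; adjusted p = 0.0929; exact permutation p = 0.013). Without array 12 it was 0.73 and passed (adjusted p = 0.0335), and over the 12 fits that left out an array the adjusted p ran from 0.0335 to 0.176. The second Dnm1l probe had a difference of 0.87 (SE 0.21) and passed over all kept probes (adjusted p = 0.0419), and so did the mean of both (0.73, adjusted p = 0.0484). Both probes of Dnm1l thus pointed the same way.

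Fis1, an outer membrane anchor of the fission machinery, was bright and did not pass. It ran from 11.00 to 12.06 in FVBN/APCmin (median 11.61) and from 10.86 to 12.28 in iPGC-1β/APCmin (median 11.49). The highest arrays were 11, 12 and 2 and the lowest were 7, 6 and 3, so both genotypes stood at both ends. The difference of 0.09 (SE 0.26; adjusted p = 0.872) had a 95% confidence interval of -0.47 to 0.65, which leaves out neither a moderate rise nor a moderate fall. Its second probe, which correlated at r = 0.979 with the first after subtraction of the genotype means, had a difference of 0.01. Mtfr1, a mitochondrial fission regulator, had 1 probe, detected on no array, with raw intensities of 115.2 to 154.1 and detection p-values of at least 0.214. It was not tested, and no fold is given for it.

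None of the 3 fusion genes passed, with 1 at an unadjusted p below 0.05 in limma, against 23.3% of all genes tested. Opa1, the inner membrane fusion GTPase, came nearest. Its log2 level on the probe used was 5.65 to 6.34 in FVBN/APCmin (median 5.82) and 5.81 to 7.53 in iPGC-1β/APCmin (median 6.83). Arrays 7, 8, 10 and 11 exceeded every FVBN/APCmin array, whereas arrays 9 and 12 lay within their range. The difference was 0.89 (SE 0.28, 95% confidence interval 0.28 to 1.51; adjusted p = 0.0858; exact permutation p = 0.0216). Without array 9 it was 1.08 and passed (adjusted p = 0.0357), and over the fits that left out 1 array the adjusted p ran from 0.0357 to 0.164. All of these levels are dim, with raw intensities of 145.7 to 309.4 on this probe, and the size depended on the background correction. It was 0.39 without one (adjusted p = 0.1) and 0.39 in the authors' table (adjusted p = 0.0997), and 1.36 with the lymphocyte covariate (adjusted p = 0.186). Opa1 passed with array quality weights (0.85, adjusted p = 0.0183), a fit in which 21.9% of all genes passed. It also passed with the smooth muscle and fibroblast covariate (0.99, adjusted p = 0.0465), where 4.3% of all genes did.

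The array carried 3 Opa1 probes, all detected on all 12 arrays. The second (ILMN_1218742) had raw intensities of 146.4 to 185.1 on FVBN/APCmin arrays and 189.9 to 242.5 on the others, with no overlap between groups. Its difference was 1.10 (SE 0.21) and passed over all kept probes (adjusted p = 0.0165), of which 2.67% separated the groups in either direction. The remaining probe (ILMN_1243717) had a difference of 0.92 (SE 0.35, adjusted p = 0.143). The 3 probes therefore gave differences of 0.89 to 1.10 in 1 direction, and 1 of the 3 passed.
The Opa1 window is shown because it is the one among the tested members with a motif match. It lies at chr16:29579084-29579333 (GRCm38.p6, + strand, from RefSeq), 5′ to 3′, with the NRF1 match in capitals, starting 59 bases before the annotated start.
Opa1: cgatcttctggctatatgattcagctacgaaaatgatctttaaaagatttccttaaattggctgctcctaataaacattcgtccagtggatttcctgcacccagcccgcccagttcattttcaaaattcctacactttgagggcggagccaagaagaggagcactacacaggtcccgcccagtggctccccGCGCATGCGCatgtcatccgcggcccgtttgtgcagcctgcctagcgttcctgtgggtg

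The mitofusins differed less. Mfn1 ran from 10.20 to 10.70 in FVBN/APCmin (median 10.48) and from 10.13 to 11.36 in iPGC-1β/APCmin (median 10.85). Arrays 7, 8, 10 and 11 were above every FVBN/APCmin array, array 9 lay among them, and array 12 was the lowest of all 12. The difference was 0.38 (SE 0.20, 95% confidence interval -0.05 to 0.81; adjusted p = 0.275; exact permutation p = 0.0823). Its second kept probe gave 0.43 (adjusted p = 0.253), and another was detected on no array. Mfn2, which also tethers mitochondria to the endoplasmic reticulum, had 1 probe, with levels of 11.40 to 12.10 in FVBN/APCmin (median 11.56) and 11.12 to 12.46 in iPGC-1β/APCmin (median 11.75). Array 8 was the highest and array 12 the lowest, both of them iPGC-1β/APCmin. The difference was 0.12 (SE 0.22, 95% confidence interval -0.36 to 0.59; adjusted p = 0.801; exact permutation p = 0.617).

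The mitophagy genes could not be compared. All 4 Park2 probes and the Bnip3 probe were detected on no array of either group. Bnip3, which encodes an outer membrane receptor for mitophagy induced by low oxygen, read 118.2 to 138.1 on FVBN/APCmin arrays and 121.6 to 142.5 on the others, with detection p-values of at least 0.305. The Park2 probes read between 106.3 and 147.8 over all arrays, and their lowest detection p-value was 0.0977. At these intensities a difference was not detectable on this array. Probes for Ndufs1, a core subunit of respiratory complex I, and for the prohibitin gene Phb were likewise detected on no array, so a silent probe here does not show a silent gene. The hypoxia targets listed beside Bnip3 were measurable: 15 of 15 tested had positive differences (median 0.45) and 1 passed, the angiogenic factor gene Vegfa (1.61, adjusted p = 0.0139). Over all genes tested 2.22% passed as higher. With the lymphocyte covariate the list's median was 0.03, and Vegfa was not among the 5 genes that passed in that fit. Without array 7 the list had 3 genes past the threshold (Vegfa, Pdk1 and P4ha2) and a median of 0.64. In that fit 16.6% of all genes passed. Without arrays 6 and 7 the list had 6 and a median of 0.78, where 19.9% of all genes passed. The mean level of these targets ran from -0.57 to 0.23 on arrays 1 to 6, with array 6 the highest. On arrays 7 to 12 it ran from -0.39 to 1.16, with array 7 the lowest.

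**Figure D3:**
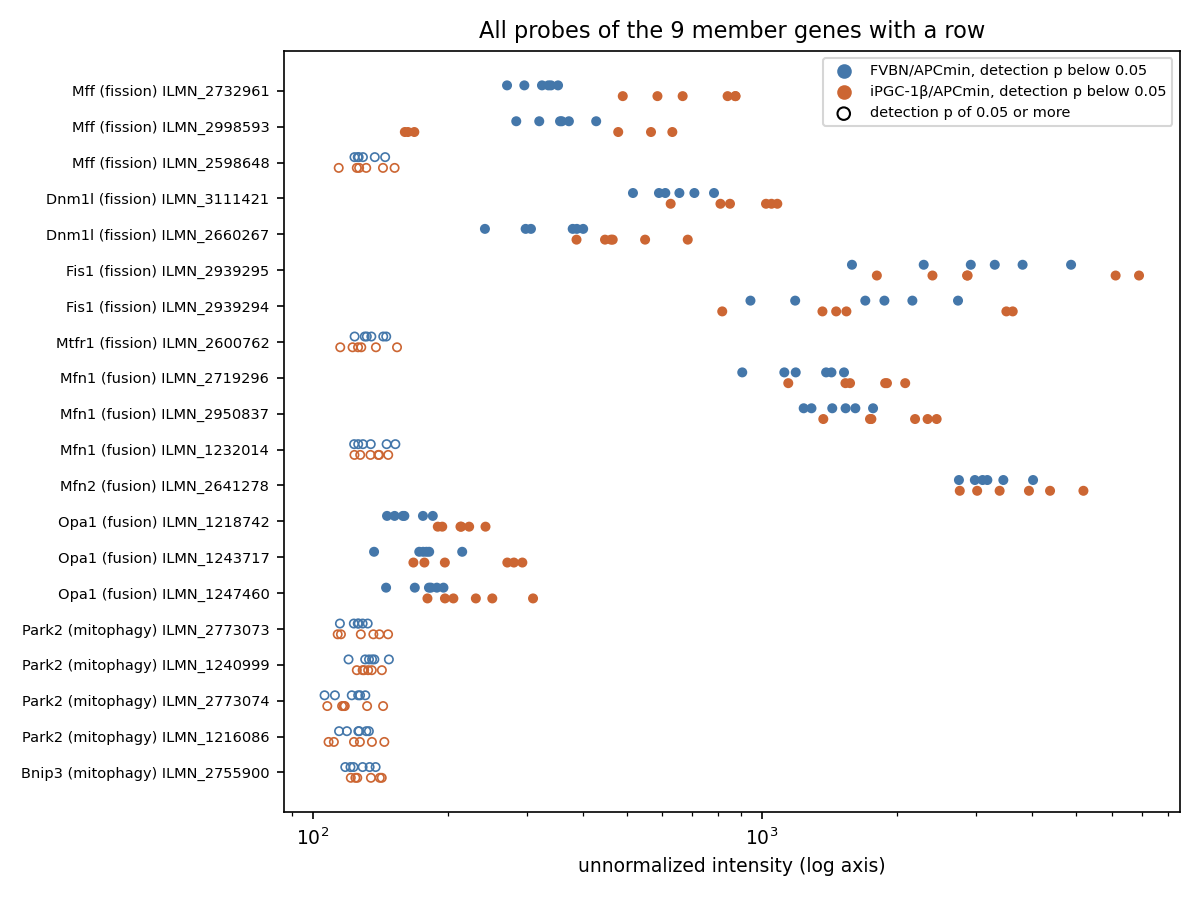
Unnormalized intensity (x axis, log scale) of all 20 probes of the 9 member genes with a row, 1 point per array, coloured by genotype, filled where the detection p-value was below 0.05. All points of Park2, Bnip3 and Mtfr1 are open and lie between 106.3 and 154.1, while all points of Mfn2 and of both Fis1 probes are filled.

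Fission and fusion genes were set side by side rather than scored. Of the 3 tested fission genes 1 passed and the median difference was 0.59. Of the 3 tested fusion genes 0 passed in limma and the median was 0.38. Over all genes tested 3.45% passed. On the probe used for each gene all 6 differences were positive, from 0.09 to 1.56, as were 5325 of the 10967 over the whole table. Each list held both small and larger ones. The second Mff probe had a difference of -0.58, so the sign and the call of Mff depended on the probe. Across arrays, 7 and 8 were the highest 2 for Dnm1l, Mfn1, Mfn2 and Opa1, whereas Fis1 was lowest on array 7. Among iPGC-1β/APCmin arrays, 12 was the lowest for Dnm1l, Mfn1 and Mfn2 but ranked second of all 12 for Mff and Fis1.

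The members were also set against the respiratory chain and TCA cycle, which oxidise fuel in the inner membrane and matrix. Of 35 tested genes of that list 21 passed, all higher, against 2.22% of all genes tested. The list's median difference was 0.82, and its mean level differed by 0.80. Subtracting that level from every gene on each array and refitting the table asks whether a gene moved by more or less than the list. Mff, on the probe used for the gene, exceeded it by 0.76 (SE 0.19, adjusted p = 0.00407), a direction in which 0.538% of all genes passed. The differences of the second Mff probe (-0.58) and of the mean of both (0.49) were below the 0.80 of the list. Neither was refitted against that level. Fis1 fell short of the list's level, with a difference of -0.71 (SE 0.24, adjusted p = 0.016), as did Mfn2 at -0.69 (SE 0.24, adjusted p = 0.0214). Such shortfalls were the common case, passed by 69% of all genes tested. For Mfn2 the call was lost without array 3 (adjusted p = 0.0508) or without array 6 (adjusted p = 0.0503). Dnm1l (-0.21, adjusted p = 0.42), Mfn1 (-0.43, adjusted p = 0.0804) and Opa1 (0.09, adjusted p = 0.772) did not pass, although Opa1 passed as lower without background correction (-0.36, adjusted p = 0.0226) and in the authors' table (-0.36, adjusted p = 0.0231). Mfn1 passed without array 7 (-0.53, adjusted p = 0.0319) or array 8 (-0.51, adjusted p = 0.0465).

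Other genes of the same machinery came from lists of general knowledge, chosen with earlier results of these data known. Of 9 other fission factors 6 were tested and 1 rose, where 2.22% of all genes tested passed as higher. The fission factor that rose was Mief2 (Smcr7 in the table), which encodes MiD49, an outer membrane receptor that recruits DRP1. Its level ran from 6.11 to 6.49 in FVBN/APCmin (median 6.36) and from 6.83 to 8.35 in iPGC-1β/APCmin (median 7.30), with no overlap. Of all genes tested, 1.93% separated the groups in that direction. The difference was 1.09 (SE 0.24, adjusted p = 0.0273), and it passed in 5 of the 12 fits that left out an array (adjusted p up to 0.0699). It kept the call without array 6 (adjusted p = 0.0286) and without array 7 (adjusted p = 0.00794). Mtfp1, a fission protein of the inner membrane, was similar in size at 1.11 (SE 0.29) but did not pass (adjusted p = 0.0516). Mief1, which encodes the other MiD receptor, had a difference of 0.44 (adjusted p = 0.343).

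Genes of inner membrane shape and OPA1 processing had 11 members tested, all with positive differences (median 0.44), of which 2 passed. Over all genes tested 2.22% passed as higher, the share to set beside each count of this paragraph. Immt, which encodes the cristae organiser mitofilin, rose from 11.45 ± 0.18 to 12.37 ± 0.32 (SD, n = 6 each; limma difference 0.92, SE 0.17, adjusted p = 0.0111). Its groups did not overlap, as for 1.93% of all genes tested with iPGC-1β/APCmin higher. It passed in all 12 fits that left out an array. Mtx1, encoding the outer membrane import factor metaxin, rose by 0.64 (SE 0.17) with an adjusted p = 0.0498, and passed in 1 of those 12 fits, that without array 7. The proteases that cut OPA1 did not pass. Oma1 had a difference of 0.07 (95% confidence interval -0.24 to 0.38, adjusted p = 0.811) and Yme1l1 one of 0.17 with a wide interval (-0.60 to 0.94, adjusted p = 0.82). Among 7 tested genes of mitochondrial transport along microtubules, 1 rose: Rhot2, which encodes the outer membrane GTPase Miro2. It averaged 10.30 ± 0.13 and 11.07 ± 0.42 (SD, n = 6 each; limma difference 0.77, SE 0.19, adjusted p = 0.04), and 4 of the 12 such fits kept it. Its adjusted p was 0.0395 without array 6 and 0.0241 without array 7. Of 10 tested genes of the outer membrane channel and protein import 2 rose (Vdac1, 1.02, adjusted p = 0.0187, and Timm44, 0.74, adjusted p = 0.0276; list median 0.35). Of 9 tested PGC-1 coactivators and partners 1 rose, the mitochondrial transcription factor gene Tfb2m (0.72, adjusted p = 0.0388; list median 0.06).

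Mitophagy and autophagy lists held no gene past the threshold in limma. Of 17 tested mitophagy receptors and adaptors 0 passed, 4 were higher and 4 lower at an unadjusted p below 0.05, and the median difference was -0.03. Over all genes tested, 23.3% reached such an unadjusted p in limma in either direction, the share to set beside each such count here. Bcl2l13, an outer membrane mitophagy receptor, had a difference of 0.49 (adjusted p = 0.0756). Its level on all 6 iPGC-1β/APCmin arrays was above every FVBN/APCmin array, as for 1.93% of all genes tested. Fkbp8, another receptor, had a difference of -0.45 (adjusted p = 0.102). The paralogue of Bnip3, Bnip3l, was measurable at 10.38 ± 0.09 and 10.56 ± 0.18 (SD, n = 6 each), a limma difference of 0.18 (adjusted p = 0.44). The cargo adaptor gene Sqstm1 had a difference of -0.52 (adjusted p = 0.133). Of 30 tested general autophagy genes 0 passed and 4 were higher at an unadjusted p below 0.05, with a median of 0.15. Atg10 (0.73, adjusted p = 0.0738) and Wipi1 (0.83, adjusted p = 0.105) had the smallest p-values, and Map1lc3b, which encodes the autophagosome marker LC3B, had a difference of 0.05 (adjusted p = 0.889). Of 8 tested ubiquitin ligases and deubiquitinases of the outer membrane 0 passed, and 0 did at an unadjusted p below 0.05. Marchf5 (2700055A20Rik in the table), a ligase that acts on DRP1 and the mitofusins, had a difference of 0.27 (adjusted p = 0.285), and Fbxo7 one of 0.33 (adjusted p = 0.357).

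Array 7 bore on these counts. Without it 16.6% of all genes passed in place of 3.45%, and the autophagy list had 4 genes past the threshold, all higher: Ulk1 (0.67), Wipi1 (1.02), Atg10 (0.80) and Map1lc3a (0.77). The mitophagy list then had 1 higher, Bcl2l13 (0.49), and 1 lower, Lrrk2 (-1.80), a kinase gene also expressed by B cells. These shares of 4 in 30 and 2 in 17 stand near that background. Beside Mief2, the other fission factors gained Mtfp1 (1.19), and beside Immt and Mtx1 the inner membrane list gained the prohibitin gene Phb2 (0.53). The respiratory chain and TCA list went from 21 to 27 genes, all higher, and the import list gained Tomm40 (0.87). Among PGC-1 partners Tfb2m passed as higher (0.69) and the transcription factor gene Nrf1 as lower (-0.58). Marker genes then passed too: the epithelial Krt20, Vil1 and Cdx1 and the enterocyte genes Fabp6 and Anpep lower, the endothelial Cdh5, Tek and Emcn and both haemoglobin genes higher. All 7 B cell markers and 7 of 8 T and NK cell markers passed as lower. The fission and fusion counts stayed at 1 and 0. The part of the lymphocyte level in these differences was not tested beyond the covariate, with which no gene of these lists passed.

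**Figure D4:**
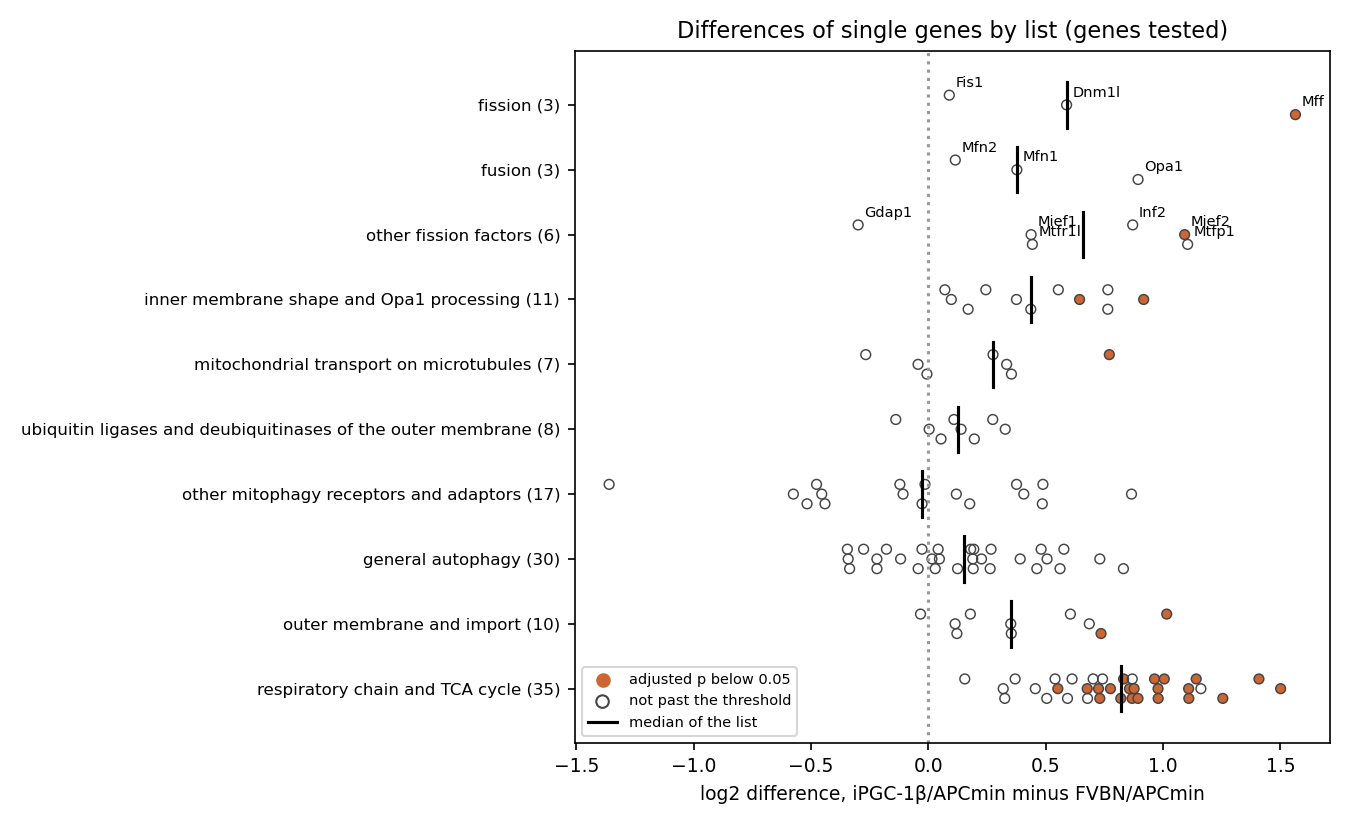
Log2 difference between genotypes (x axis) of each tested gene (points) in 10 lists (y axis, number tested in brackets), filled where the adjusted p was below 0.05, with the list median as a bar. Mff lies farthest right among fission and fusion genes, the respiratory chain and TCA list has 21 filled points, and the mitophagy and autophagy lists have none.

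For Mff, on the probe used for the gene, the genes most alike in array-to-array pattern were found by Pearson correlation of log2 levels over the 12 arrays. Each genotype's mean was subtracted first. The second Mff probe, at r = -0.131 with the first, was not compared this way. The 3 genes were Aldh1b1, which encodes a mitochondrial aldehyde dehydrogenase (r = 0.966), Prodh, which encodes proline dehydrogenase (r = 0.925), and the esterase gene Ces5 (r = 0.92). All values of an array share its RNA sample, and the 3 genes are the highest of the whole table, so the correlations are given as a description. None of the 3 shared the rise of that Mff probe: their differences were -0.93, -0.22 and -0.79, with adjusted p-values of 0.0604, 0.741 and 0.109.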

How the data were processed

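The deposited unnormalized table holds 1 averaged intensity per probe and array, per the file headers, and a detection p-value against that array's negative controls. The second deposited table holds intensity that the authors had quantile-normalized, as read from its values. The submitters' processing notes name GenomeStudio, without a version. The unnormalized values were taken through limma 3.58.1 (R 4.3.3): neqc (background correction from detection p-values, offset 16, quantile normalization, log2), a filter that kept the 14827 probes detected (p below 0.05) in 4 or more arrays, and the probe with the highest mean per symbol (10967 genes). The genotypes were compared with lmFit and eBayes with an intensity trend. Single members were also tested by exact permutation of the 12 arrays. The number of arrays limits the precision. Fits were tested on simulated data.

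Members and lists were chosen with earlier results of these data known. Besides the members, the named genes are those past the threshold in each list, or the 2 with the smallest p where none passed, up to 3 of each context list, and the 3 genes most like Mff. Mtfp1, Mief1, Oma1, Yme1l1, Phb2, Bnip3l, Sqstm1, Map1lc3b, Map1lc3a, Ulk1, Lrrk2, Ndufs1, Phb, Arhgdib, Tomm40, Nrf1 and the marker genes were named after their values were seen. The lists named by symbol were matched through RefSeq synonyms where needed. Alternatives were other background corrections, normalizations, filters, probe rules, weights and covariates, the authors' table, a fold minimum and leaving out arrays.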

Additional observations from a re-analysis of the deposited data

Results flagged for a closer look

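Opa1 on array 4 (FVBN/APCmin) read 6.34 on the log2 scale with the probe used for the gene, and the next highest of its group read 5.88. Its gap to that neighbour was 0.665 of the whole range of the group, beyond the limit of Dixon's test at 95%. Chance gives about 1 in 20 groups such a value, and 32 groups were looked at. Without array 4 the Opa1 difference was 0.99 and still did not pass.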

How the results depend on the processing

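No paired analysis was possible because the labels give no pairing between the groups (arrays 1 to 6 and 7 to 12). The whole-table count of 378 became 200 without a detection filter, 2403 with array quality weights, 5 with the lymphocyte level as a covariate, 2184 without arrays 6 and 7, 0 with the respiratory level as a covariate, and 129 to 1821 when 1 array was left out. The fission count of 1 became 2 with array quality weights, 0 with either the lymphocyte or the respiratory covariate, and 1 to 2 when 1 array was left out. With the mean of kept probes the fission count stayed at 1, but the gene that passed was then Dnm1l and no longer Mff. The fusion count of 0 became 1 with array quality weights or with the smooth muscle and fibroblast covariate, and 0 to 1 when 1 array was left out. The mitophagy count was 0 without a detection filter, the one alternative that tested Park2 and Bnip3.

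The respiratory covariate, which separates the genotypes by itself, gave 0.45 for Mff and turned Fis1 (-1.16), Mfn1 (-0.0517) and Opa1 (-0.0872). Fis1 also turned with the lymphocyte covariate (-0.0044) and ran from -0.0459 to 0.237 when 1 array was left out, with Mfn2 from -0.0199 to 0.249. Mff turned on its second probe alone (-0.58). Beyond the respiratory level, Opa1 was -0.36 without background correction, -0.0041 with cyclic loess, -0.11 at a common 75th percentile, -0.14 with an offset of 50, -0.36 in the authors' table, -0.13 without arrays 6 and 7, and -0.0939 to 0.216 when 1 array was left out. Dim probes such as those of Opa1 are limited by signal over background. The respiratory covariate, the tests of single probes and the differences beyond the respiratory level were chosen after the data were seen.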
